A study of Mus musculus with 2 samples.

Results

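Core transcription factors of the T cell lineage were read here in mouse DN3 thymocytes from Miz-1 knockout and wild-type animals. Of the 10 genes chosen by name (Gata3, Tcf7, Lef1, Bcl11b, Runx1, Runx3, Cbfb, Satb1, Myb and Ets1), 9 had at least 1 probe set under exactly that symbol in the platform annotation, and together they had 28 of the 45037 non-control probe sets. No probe set is paired with Tcf7 in that annotation, so Tcf7 was not analysed here. A probe set is a group of short probes on the array that reads a stretch of a transcript, and each was read separately.

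Loss of Miz-1 function was examined with 1 array of Miz-1 knockout cells and 1 array of wild-type cells. Both came from the C57BL/6 background and both were thymocytes sorted as negative for lineage markers and CD44 and positive for CD25. Miz-1, the product of Zbtb17, belongs to the POZ zinc finger transcription factors, and the series' design text names the mutant mice Miz1-delta-POZ, after the domain that was removed. The driver of the deletion, the age of the animals and whether animals were pooled could not be learned from the labels. With 1 array per genotype there is no replicate, the values carry no error between animals, and no difference could be tested. Fewer expressing cells and less RNA per cell cannot be told apart in RNA from sorted populations.

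These factors switch on and hold the T cell programme. Notch signals in the thymus first induce TCF-1, the product of Tcf7, and GATA-3, and these help to activate Bcl11b, whose product closes off the alternative fates of the progenitor. RUNX factors bind DNA as heterodimers with CBF-beta, the product of Cbfb, and act as activators and as silencers, for instance of Cd4. Satb1 encodes a chromatin organiser, and Myb and Ets1 encode DNA-binding activators needed for thymocyte development. DN3 cells, which rearrange their T cell receptor beta locus, are already committed to the T lineage and express most of these genes.

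The series as a whole was checked first. Signals are linear and both arrays had been brought to a trimmed mean of 1000. Values under a floor of 394, the median of all non-control values, were raised to it before ratios were taken. A probe set whose mean over both arrays exceeded the floor is called measured, which 21897 were. The targeted gene Zbtb17 read 1361 in knockout cells and 3042 in wild-type cells by its measured probe set, and whether its probes lie in the deleted part is not known here. The other Zbtb17 probe set read 610 in knockout cells and 47.6 in wild-type cells, the opposite direction, and was not measured. All 10 markers preset for DN3 cells, such as Il2ra and Ptcra, were measured on these arrays. Of these, 3 (Dtx1, Il2ra and Cd3g) were past 2-fold higher, none was past 2-fold lower, 9 had a positive ratio, and the median log2 ratio was 0.77. Of all measured genes, each read by its brightest probe set, 7.23% were higher and 5.65% lower by 2-fold or more. The summed signal of the 10 markers was 240280 in knockout cells and 147529 in wild-type cells. Il2ra, the gene of the sort marker CD25, read 23018 in knockout cells and 4992 in wild-type cells. Past 2-fold higher were 2 of the 10 under median scaling, 5 under quantile and 4 under loess normalization. Among all measured genes 566 of 10779, 670 of 10777 and 685 of 10775 were higher in these settings. The part of the DN3 markers in the values of the members was not tested. Cd44 read 331 in knockout cells and 424 in wild-type cells, and Cd4 read 112 in knockout cells and 79.3 in wild-type cells. The 2 samples differ in sex, since Xist read 55300 in knockout cells and 423 in wild-type cells and the Y-linked gene Kdm5d read 36.7 in knockout cells and 1782 in wild-type cells. Sex and genotype cannot be told apart in any value below.

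The sequence before the annotated start is shown for the 3 genes that had a probe set differing by at least 2-fold, Satb1, Runx1 and Myb. These genes were picked for display after their values were seen, since none passed 2-fold by most of its measured probe sets. Each line holds the 250 bases upstream of a transcript start from RefSeq (GRCm38.p6), 5′ to 3′ on the gene's strand, and capitals mark a match to the ETS motif CCGGAA. For Satb1 the most upstream of its 5 windows is shown, and for Runx1 both of its starts, which lie far apart in the gene.
Satb1 (chr17:51833291-51833540, minus strand): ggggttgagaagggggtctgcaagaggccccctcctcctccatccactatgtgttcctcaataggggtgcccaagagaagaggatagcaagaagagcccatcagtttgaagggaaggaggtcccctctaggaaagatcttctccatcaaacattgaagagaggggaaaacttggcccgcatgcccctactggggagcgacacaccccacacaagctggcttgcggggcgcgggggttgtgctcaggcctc
Runx1, first start (chr16:92826075-92826324, minus strand): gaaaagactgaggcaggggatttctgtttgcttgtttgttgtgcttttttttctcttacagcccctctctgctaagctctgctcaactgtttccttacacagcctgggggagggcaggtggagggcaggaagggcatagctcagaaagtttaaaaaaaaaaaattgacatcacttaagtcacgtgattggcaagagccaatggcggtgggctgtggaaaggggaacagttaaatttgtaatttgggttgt
Runx1, second start (chr16:92697330-92697579, minus strand): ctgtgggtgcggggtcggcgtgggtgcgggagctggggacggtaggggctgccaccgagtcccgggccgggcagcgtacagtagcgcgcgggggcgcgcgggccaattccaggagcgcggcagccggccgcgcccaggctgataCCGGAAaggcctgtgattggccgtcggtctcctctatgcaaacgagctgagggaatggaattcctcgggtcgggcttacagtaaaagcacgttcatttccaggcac
Myb (chr10:21160985-21161234, minus strand): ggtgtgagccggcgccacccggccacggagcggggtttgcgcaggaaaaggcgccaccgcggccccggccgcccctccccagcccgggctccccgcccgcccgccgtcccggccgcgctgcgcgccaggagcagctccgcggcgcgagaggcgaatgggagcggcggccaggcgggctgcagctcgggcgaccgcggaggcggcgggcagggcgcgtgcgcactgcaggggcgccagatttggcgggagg
Matches were sought on both strands to TGTGGT, bound by RUNX factors, CTTTGA, bound by TCF and LEF factors, AGATAA, bound by GATA factors, CCGGAA, bound by ETS factors, and AACNG, bound by MYB. These letters occur in 14.0%, 13.8%, 9.99%, 12.0% and 74.2% of the 32851 promoter windows of this length in the table. The second Runx1 start held 1 ETS match, and the first Runx1 window held 5 matches to the short MYB motif, some of which overlap on opposite strands. The Satb1 window shown held 1 match to the MYB motif and none of the others, and the Myb window held none of the 5 motifs. Among windows not printed, the first Runx3 start held 2 RUNX matches, the fourth Lef1 window 2 TCF and LEF matches, the Bcl11b window 1 TCF and LEF match, and the Gata3 window and the second Tcf7 window 1 ETS match each. MYB matches also occurred in windows not printed, for instance 3 each in the Bcl11b window and the fourth Lef1 window. A match of letters is a description and not a binding site. Probe positions were not used here, so no probe set could be assigned to a start.

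Most of these factors read much the same on both arrays, and only probe sets of Satb1, Myb and Runx1 passed 2-fold. Of the 28 probe sets, 26 were measured. By the size rule, a floored ratio of 2-fold or more in which the brighter reading exceeds the floor, 2 of the 26 were higher in the knockout (1 each of Runx1 and Myb), where 8.17% of all measured probe sets were. Another 2 of the 26 were lower, both of Satb1, where 5.43% of all measured probe sets were. At 7.69% in either direction, the members lie near both backgrounds, so the counts set nothing apart. Among all measured probe sets, 95.2% had a lower ratio than this Runx1 probe set and 94.5% a lower ratio than this Myb probe set. The log2 ratio of knockout over wild type had a median of 0.16 over the 26 probe sets and 0.04 over all measured probe sets. It was positive in 18 of the 26 and negative in 8, and 52.4% of all measured probe sets were positive. Within 1.5-fold lay 15 of the 26, or 57.7%, against 60.5% of all measured probe sets.

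The scale of the arrays moves these counts. Dividing each array by its own median lowered the median log2 ratio of all measured probe sets to -0.12. The share of higher calls among all 2-fold calls was then 41.9%, against 60.1% in the deposited values. Under that scaling 1 of the 26 member probe sets was higher and 3 were lower (3.85% and 11.5%), where 5.91% and 8.19% of all measured probe sets were. Under quantile normalization 2 were higher and 2 lower (7.69% each), where 6.88% and 6.33% of all were. Under loess normalization 2 were higher and 3 lower (7.69% and 11.5%), where 6.98% and 6.19% of all were. The median of the 26 was 0.01, 0.31 and 0.28 under the median, quantile and loess settings. For all measured probe sets it was -0.12, -0.02 and -0.01.

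**Figure D1:**
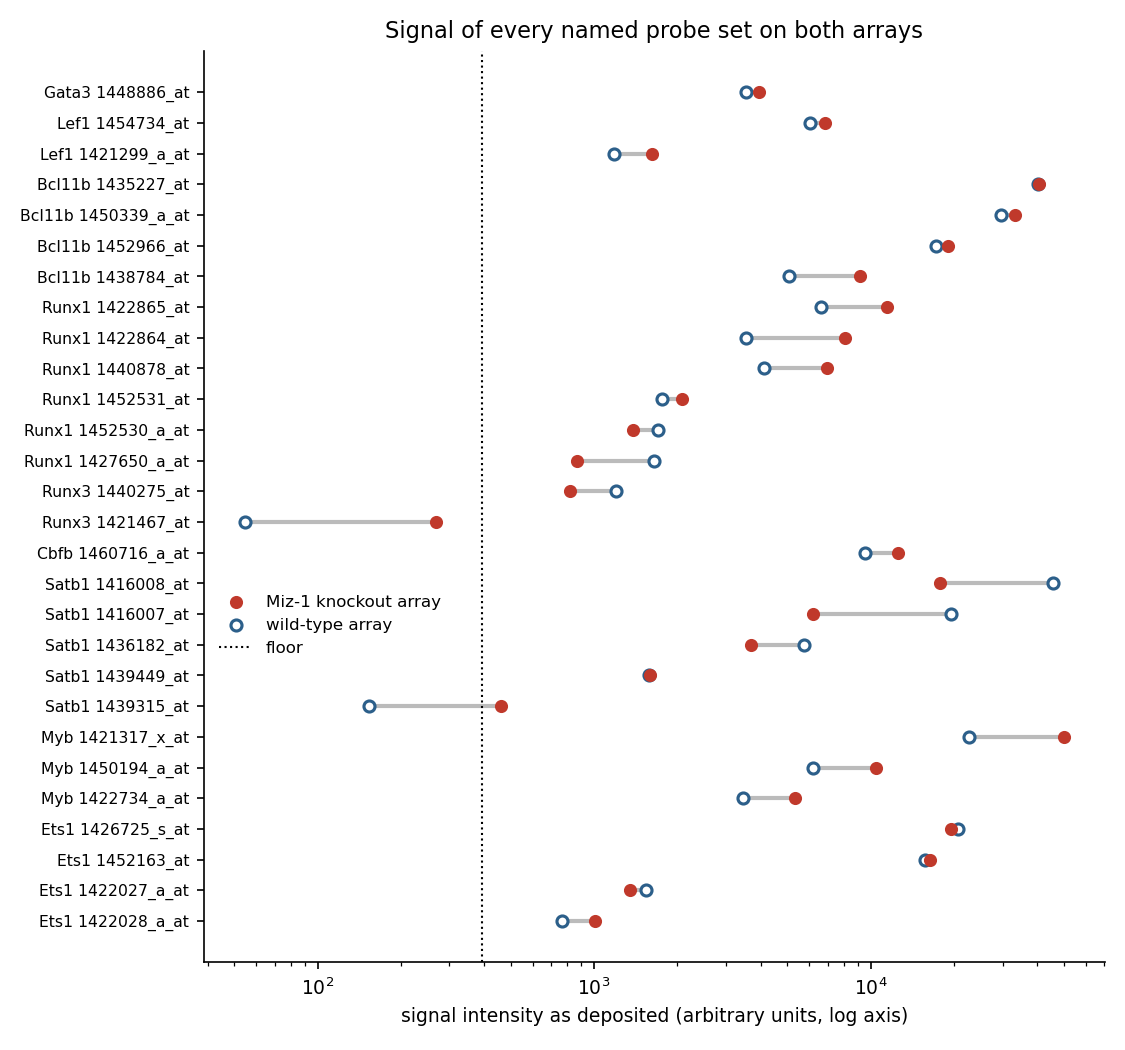
Signal of the 28 named probe sets on a log axis, filled circles for the Miz-1 knockout array and open circles for the wild-type array, with the floor of 394 dotted. The open circle lies far to the right of the filled one for 2 probe sets of Satb1, while the circles nearly coincide for 3 of the 4 of Bcl11b.

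Gata3 and Lef1, which act early in T lineage specification and commitment, were close to equal. Gata3, an activator needed from the first T lineage stages, has 1 probe set, which read 3934 in knockout cells and 3529 in wild-type cells, a log2 ratio of 0.16. Lef1, the HMG box relative of TCF-1 in pre-T cells, read 6860 in knockout cells and 6033 in wild-type cells by its brighter probe set. Its second probe set read 1617 in knockout cells and 1179 in wild-type cells. Their log2 ratios were 0.19 and 0.46, so both Lef1 readings were slightly higher in the knockout and both lay under 2-fold. The Gata3 ratio was 0.00 with the arrays scaled by their medians.

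Bcl11b, the commitment factor that T cells need to keep their identity, also lay under 2-fold by every probe set. The brightest reading was 40797 in knockout cells and 40159 in wild-type cells, a log2 ratio of 0.02. The next read 33321 in knockout cells and 29660 in wild-type cells, and another 19056 in knockout cells and 17179 in wild-type cells. These 3 lay within a log2 ratio of 0.17 of equality. The fourth, 1438784_at, stood apart from them at 9180 in knockout cells and 5055 in wild-type cells, a log2 ratio of 0.86. The ratios of 1435227_at and 1452966_at turned to -0.13 and -0.01 under median scaling, so no direction can be given for these 2. Their ratios were 0.47 and 0.44 under quantile and 0.38 and 0.39 under loess normalization. Those of 1450339_a_at and 1438784_at were 0.57 and 0.99 under quantile and 0.49 and 0.96 under loess normalization, still under 2-fold.

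The 6 Runx1 probe sets did not give a common direction. RUNX1 is the main RUNX protein of early thymocytes. Probe set 1422864_at read 8086 in knockout cells and 3531 in wild-type cells, 2.29-fold higher. Probe set 1422865_at, designed from the same source sequence, read 11445 in knockout cells and 6595 in wild-type cells, a log2 ratio of 0.80. The ratios of these readings from 1 source sequence differ by 0.40, and whether they read the same stretch of it is not known here. Probe set 1440878_at, from another source, read 6949 in knockout cells and 4100 in wild-type cells, a log2 ratio of 0.76.

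The dimmer Runx1 probe sets lay lower. Of the pair from a further source sequence, 1452531_at read 2076 in knockout cells and 1758 in wild-type cells, and 1452530_a_at read 1380 in knockout cells and 1702 in wild-type cells. Their log2 ratios were 0.24 and -0.30. Probe set 1427650_a_at read 869 in knockout cells and 1643 in wild-type cells, a log2 ratio of -0.92, opposite to the 3 brightest. That last probe set was past 2-fold lower under each other scaling, for example at -1.07 under median scaling and -1.02 under quantile normalization. The SD of the log2 ratio among the 6 Runx1 probe sets was 0.79. Over the 4514 genes with at least 2 measured probe sets the root mean square of this SD was 0.57. Each Runx1 probe set kept its sign under all 3 other scalings.

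Cbfb, whose product stabilises RUNX proteins on DNA, read 12546 in knockout cells and 9581 in wild-type cells by its 1 probe set, a log2 ratio of 0.39. Runx3, the RUNX gene best known from CD8 T cells, read 818 in knockout cells and 1205 in wild-type cells by its measured probe set, a log2 ratio of -0.56. Its other probe set read 269 in knockout cells and 54.6 in wild-type cells. Both of these values are under the floor, so no ratio is given for it. Cbfb and Runx3 therefore lay on opposite sides of equality and both under 2-fold.

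The 2 lowest ratios among the members were of Satb1. SATB1 folds chromatin into loops and is needed for normal passage of thymocytes through later stages. The brightest probe set, 1416008_at, read 17799 in knockout cells and 45586 in wild-type cells, 2.56-fold lower. Probe set 1416007_at read 6210 in knockout cells and 19495 in wild-type cells, 3.14-fold lower. Both were designed from the same source sequence, so they were not taken as independent readings of the gene. Among all measured probe sets, 1.52% had a lower ratio than the first of them and 0.521% a lower ratio than the second.

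The other Satb1 probe sets were less far apart. Probe set 1436182_at read 3694 in knockout cells and 5758 in wild-type cells, a log2 ratio of -0.64. Probe set 1439449_at read 1593 in knockout cells and 1581 in wild-type cells, a log2 ratio of 0.01 that turned negative under the other scalings. The fifth, 1439315_at, read 459 in knockout cells and 154 in wild-type cells and was not measured, as its mean lay under the floor. Thus 3 of the 4 measured probe sets were lower in the knockout and 1 was nearly equal. The SD among the 4 log2 ratios was 0.75, of the same order as for Runx1. The 2 probe sets past 2-fold stayed lower under every scaling, at -1.81, -1.47 and -1.49 for 1416007_at under median scaling, quantile and loess normalization. For 1416008_at the ratio was -1.51 under median scaling and -1.05 under loess normalization, and it was just short of 2-fold under quantile normalization.

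Myb was higher in the knockout by all of its probe sets. MYB is an activator of progenitors and of thymocytes, needed around the DN3 stage. Probe set 1421317_x_at read 49983 in knockout cells and 22628 in wild-type cells, 2.21-fold higher. Its ending marks probes that may cross-hybridise to other sequences. Probe set 1450194_a_at read 10445 in knockout cells and 6186 in wild-type cells, and 1422734_a_at read 5313 in knockout cells and 3443 in wild-type cells. Their log2 ratios were 0.76 and 0.63, so the readings that carry no cross-hybridisation mark were under 2-fold. The SD among the 3 ratios was 0.27. Under median scaling the brightest Myb probe set had a log2 ratio of 0.99, just short of 2-fold, and under quantile and loess normalization it had 1.61 and 1.47.

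Ets1, the founding member of the ETS family and an activator of T cell receptor genes, was near equality. The brightest reading was 19489 in knockout cells and 20795 in wild-type cells, and the second 16431 in knockout cells and 15743 in wild-type cells. These share a source sequence and had log2 ratios of -0.09 and 0.06, signs that turned with the scaling. The dimmer pair, from another shared source, read 1349 and 1009 in knockout cells, against 1546 and 768 in wild-type cells. Their log2 ratios of -0.20 and 0.39 lay on either side of equality.

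**Figure D2:**
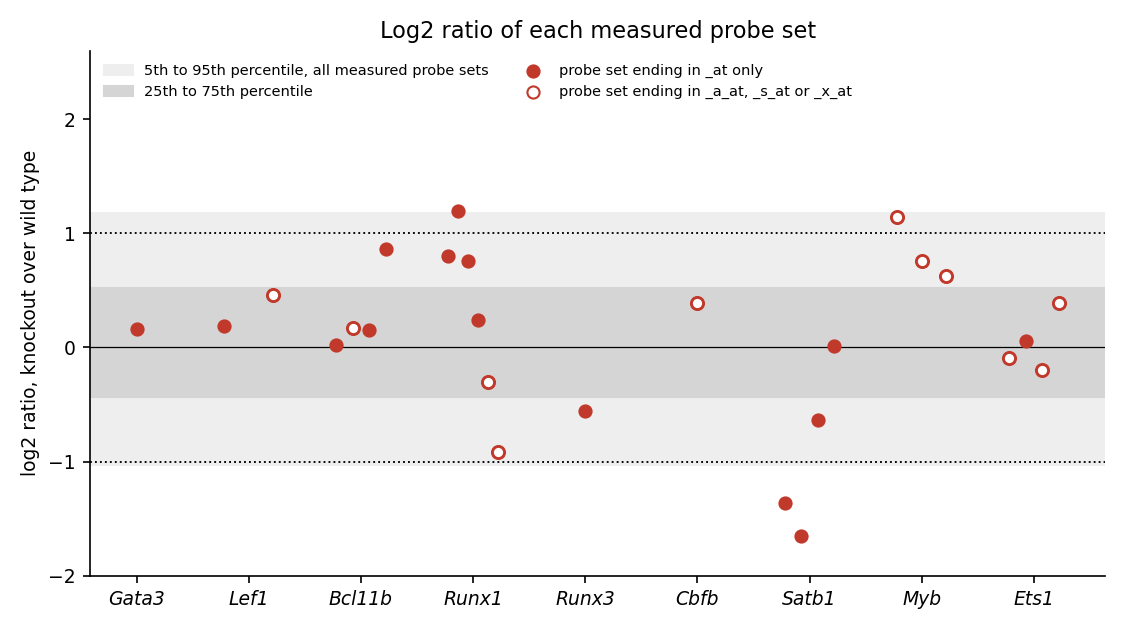
Log2 ratio of knockout over wild type for the 26 measured probe sets by gene, with open circles for endings _a_at, _s_at and _x_at, grey bands for the percentiles of all measured probe sets and dotted lines at 2-fold. The probe sets of Myb all lie above 0, those of Runx1 spread from -0.92 to 1.20, and 2 of Satb1 lie below the 5th percentile of -1.03.

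Among the members the log2 ratio spread most within Runx1 and Satb1. The SD of the log2 ratio within a gene was 0.19 for Lef1, 0.38 for Bcl11b and 0.26 for Ets1. Its root mean square over the 6 members with at least 2 measured probe sets was 0.50, against 0.57 over all genes. This spread covers noise of these arrays and differences between transcripts of a gene, and nothing between animals. By the mean of its measured probe sets Satb1 had a log2 ratio of -0.91, Myb 0.84, and Runx1 and Bcl11b 0.30 each. Of these means none reached 2-fold.

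**Figure D3:**
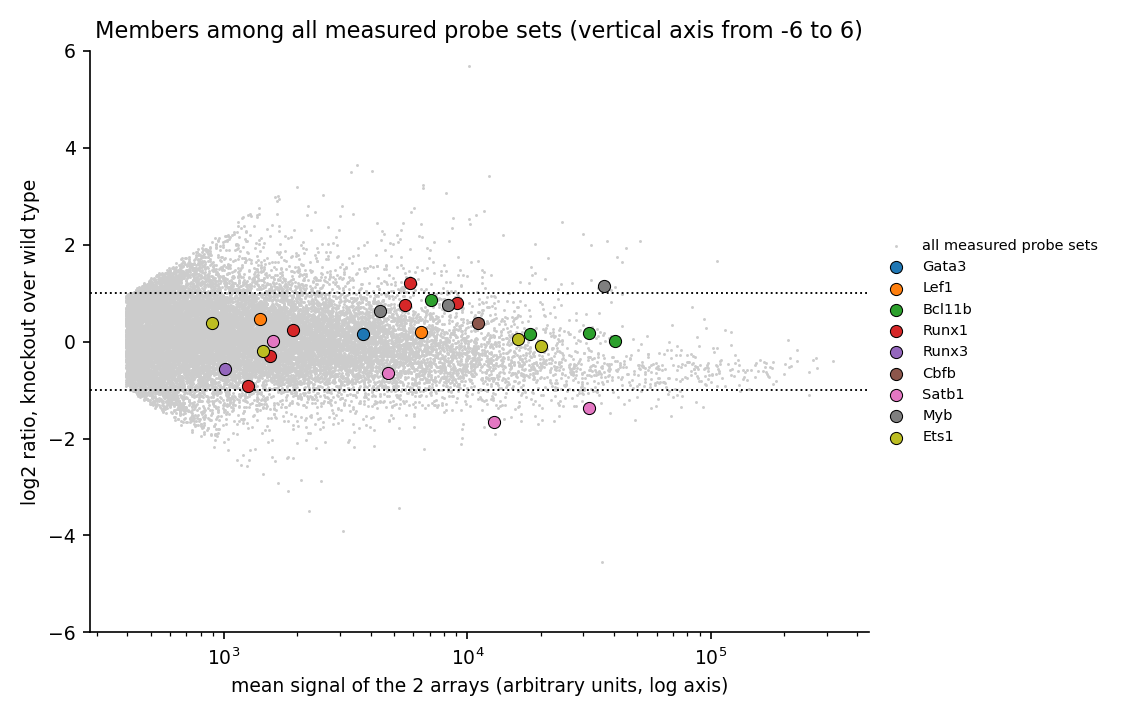
Log2 ratio of knockout over wild type against the mean signal of both arrays on a log axis, with the members in colour over all measured probe sets in grey (1 grey point, beyond 6, is outside the axis). The 2 lowest Satb1 points and the highest Myb point lie beyond the 2-fold lines among bright probe sets.

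Probe sets whose ID marks shared sequence were 11 of the 26. The ending _a_at marks probes that match several transcripts of a gene, _s_at probes common to transcripts of several genes and _x_at probes that may cross-hybridise. Without these, 15 member probe sets remained, of which 1, of Runx1, was higher and 2, of Satb1, were lower by 2-fold or more (6.67% and 13.3%), where 8.74% and 4.81% of all 16164 such measured probe sets were. All 3 Myb readings carry such an ending. In Runx1 the 4 probe sets with the plain ending had positive ratios and the 2 with the ending _a_at had negative ones.

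**Figure D4:**
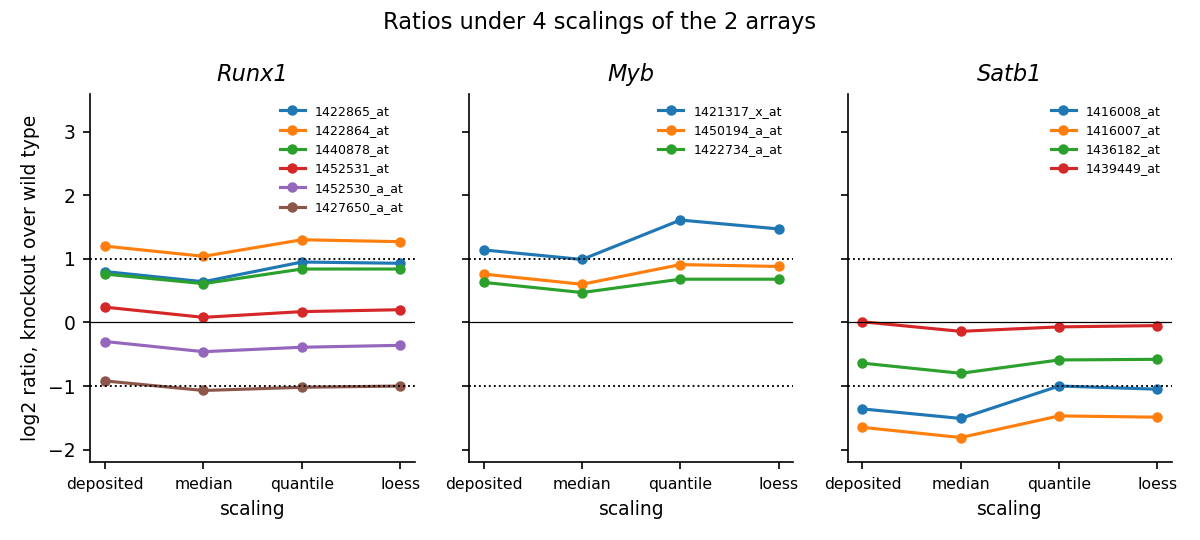
Log2 ratio of each measured probe set of Runx1, Myb and Satb1 in the deposited values and after median, quantile and loess scaling, with dotted lines at 2-fold. The lines keep their order within a gene while the brightest Myb probe set moves between 0.99 and 1.61 and Satb1 1416007_at between -1.81 and -1.47.

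Relatives of these factors were read by the probe set with the highest mean signal of each gene, as were all lists below. By that reading 7.23% of the 10770 measured genes were higher by 2-fold or more, 5.65% were lower by as much, and their median log2 ratio was 0.00. Of 29 listed relatives, 27 had a named probe set and 22 were measured, of which 3 were higher by 2-fold or more and none lower by as much. Their median was -0.01. Erg, an ETS gene of stem cells and early T precursors, read 888 in knockout cells and 199 in wild-type cells, at least 2.25-fold higher. Gata1, the erythroid GATA factor, read 882 in knockout cells and 387 in wild-type cells, at least 2.24-fold higher. Tcf7l2, a relative of Tcf7, read 911 in knockout cells and 417 in wild-type cells, 2.19-fold higher, with its other measured probe set at a log2 ratio of 0.23. Ets2 and Elk3 had log2 ratios of 0.81 and 0.21, and each had another measured probe set past 2-fold higher, at 1.48 and 1.58. The lowest ratio of any measured probe set of a relative was -0.89, of Elf2. Under median scaling 2 relatives were higher and 1, Elf2, was lower, where 566 and 927 of 10779 measured genes were. Under quantile normalization Tcf7l2 was not past 2-fold. The MYB relative Mybl2 read 1461 in knockout cells and 1880 in wild-type cells, a log2 ratio of -0.36, and the other relative Mybl1 was below the floor.

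Cofactors of the members lay mostly below equality, although few passed 2-fold. Of 26 listed cofactors, 25 had a named probe set and 24 were measured. Of the 24, none was higher and 2 were lower by 2-fold or more, and 7 had a positive ratio. Their median log2 ratio was -0.25, where that of all measured genes was 0.00. It was -0.40, -0.16 and -0.20 under median scaling, quantile and loess normalization, where the medians of all genes were -0.16, -0.04 and -0.03. Tle5 read 1624 in knockout cells and 4264 in wild-type cells, 2.63-fold lower. It is a short member of the Groucho family, whose longer members are corepressors that bind TCF and RUNX proteins. Bcl9, a coactivator that binds beta-catenin, read 429 in knockout cells and 1054 in wild-type cells, 2.46-fold lower. Ctnnb1, which encodes beta-catenin itself, read 22169 in knockout cells and 33554 in wild-type cells, a log2 ratio of -0.60, with its 3 measured probe sets between -0.60 and 0.08. Zfpm1, which encodes the GATA partner FOG-1, had a log2 ratio of -0.51. Hdac2, a deacetylase of the NuRD complex that BCL11B recruits, read 11666 in knockout cells and 20864 in wild-type cells, a log2 ratio of -0.84. The 3 measured Hdac2 probe sets lay between -0.85 and -0.17. Crebbp, an acetyltransferase gene whose product binds MYB, had the highest ratio of the list by brightest probe set, 0.81. The 3 measured Crebbp probe sets lay between 0.40 and 1.12, the highest past 2-fold.

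Genes of T cell identity, many of them bound or regulated by these factors, lay on both sides of equality. Of 28 listed, 26 had a named probe set and 23 were measured. Of the 23, 4 were higher and 2 lower by 2-fold or more, where 7.23% and 5.65% of all measured genes were. The median log2 ratio of the 23 was 0.12. The Notch target gene Dtx1 read 14456 in knockout cells and 2841 in wild-type cells, 5.09-fold higher. Cd27, a costimulatory receptor, was 2.63-fold higher, and the CD3 chains Cd3g and Cd3d were 2.17-fold and 2.14-fold higher. Ccr9, a chemokine receptor, read 3554 in knockout cells and 15351 in wild-type cells, 4.32-fold lower, with 4 measured probe sets between -2.86 and 0.19. The Ccr9 probe set used ends in _x_at and may cross-hybridise. Cd28 read 1499 in knockout cells and 4616 in wild-type cells, 3.08-fold lower. Rag1, a recombinase gene, had a log2 ratio of -0.40 and Ptcra, the gene of the pre-T alpha chain, 0.62. Il7r, Notch1 and Cd247 were short of 2-fold by brightest probe set, but each had another measured probe set past 2-fold higher, at 1.44, 1.23 and 1.38. No gene of the list had such a reading past 2-fold lower. Under median scaling the median of the list turned to -0.03 and 2 genes were higher and 2 lower. Under quantile and loess normalization 8 and 6 were higher and 2 lower in each. Among all measured genes 566 of 10779 were higher and 927 lower under median scaling. Under quantile normalization 670 of 10777 were higher and 693 lower, and under loess normalization 685 of 10775 were higher and 679 lower.

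Genes silenced during T lineage commitment were mostly dim. Of 24 listed, 14 had a mean signal under the floor and 10 were measured, of which 1 was higher by 2-fold or more and none lower by as much. The median log2 ratio of the 10 was -0.17. The gene past 2-fold, Csf1r, a receptor of myeloid cells, read 1204 in knockout cells and 529 in wild-type cells, 2.28-fold higher, with its 3 measured probe sets between 0.05 and 1.37. Id2, an inhibitor of E proteins that BCL11B restrains, read 1351 in knockout cells and 997 in wild-type cells, a log2 ratio of 0.44, and its other measured probe set was past 2-fold higher at 1.03. Bcl11a, a relative of Bcl11b used by progenitors and B cells, read 661 in knockout cells and 1152 in wild-type cells, a log2 ratio of -0.80, with its 3 measured probe sets between -0.80 and 0.69. Zbtb16 and Nfil3, genes of innate lymphocytes, were under the floor on both arrays, as was Cd4, which RUNX proteins silence in these cells.

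Target genes of TCF factors in Wnt signalling gave few readings. Of 11 listed, 4 were measured, with a median log2 ratio of -0.52. Ccnd1, the cyclin D1 gene, read 161 in knockout cells and 875 in wild-type cells, at least 2.22-fold lower, and Notum, a feedback inhibitor of Wnt, read 884 in knockout cells and 69.9 in wild-type cells, at least 2.24-fold higher. Axin2, the most used readout of this pathway, was under the floor on both arrays at 322 in knockout cells and 384 in wild-type cells. Myc read 10639 in knockout cells and 13887 in wild-type cells, a log2 ratio of -0.38.

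**Figure D5:**
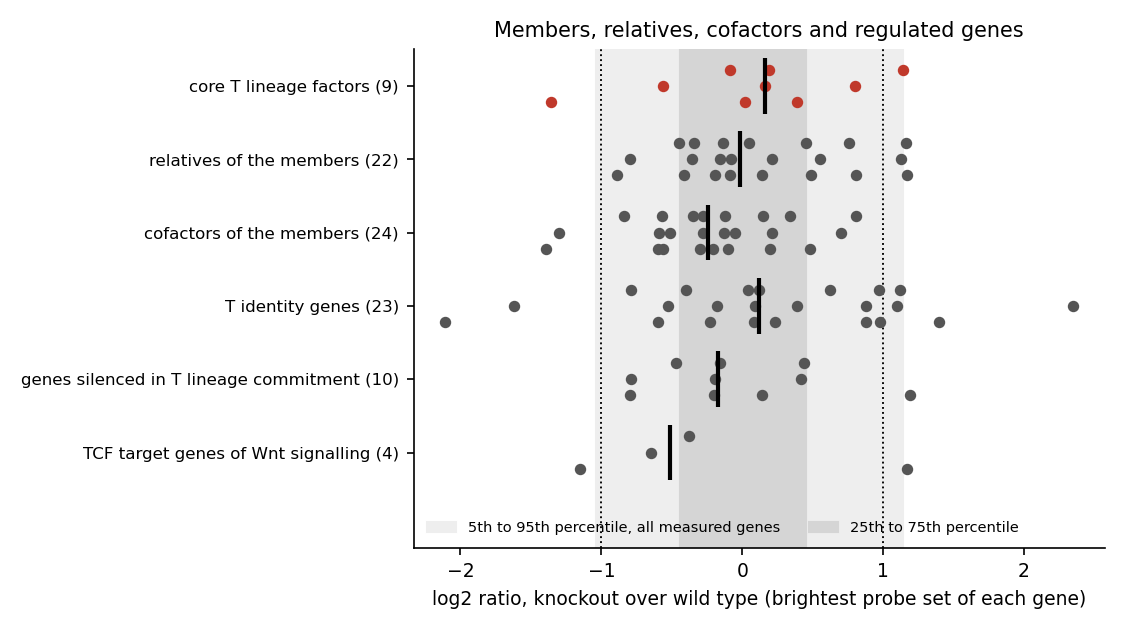
Log2 ratio of knockout over wild type of each measured gene by its brightest probe set, for the members in red and the 5 lists in grey, with a black bar at each median, grey bands for the percentiles of all measured genes and dotted lines at 2-fold. The median is 0.16 for the members and -0.25 for the 24 cofactors.

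Markers of other cells differed between the arrays in places, and their part in the values of the members was not tested. Of 13 myeloid markers 4 were measured and 3 of these (Lyz1, Lyz2 and Csf1r) were at least 2-fold higher. The Lyz1 probe set used ends in _x_at and may cross-hybridise, and the other measured Lyz1 probe set had a log2 ratio of 0.87. The summed signal of the 13 was 10996 in knockout cells and 3718 in wild-type cells. Of 11 markers of the earlier DN1 and DN2 progenitors 5 were measured and none passed 2-fold, with summed signals of 4513 in knockout cells and 4681 in wild-type cells. Of 7 named markers of double positive thymocytes, the stage after DN3 and DN4, 4 were measured and none passed 2-fold by its brightest probe set. Their summed signals were 21792 in knockout cells and 20630 in wild-type cells, and 5715 in knockout cells and 6120 in wild-type cells without Arpp21. The 5 measured Arpp21 probe sets had log2 ratios between 0.15 and 1.58, the highest past 2-fold, and the brightest was the lowest of them.

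Sums run over all named markers of a list, measured or not. For several lists 1 gene made up much of the sum, so sums are also given without the marker of the largest difference in signal, a choice made after seeing the data. Without Lyz1 the myeloid sum was 6446 in knockout cells and 3163 in wild-type cells. Of 8 named B cell markers 5 were measured. Ighm and Cd22 were past 2-fold lower, while Cd79a, Cd79b and Ms4a1 had log2 ratios of 0.78, 0.90 and 0.54, and the median of the 5 was 0.54. The B cell sum was 16388 in knockout cells and 31706 in wild-type cells, and without Ighm it turned to 5048 in knockout cells and 3498 in wild-type cells. Of 7 named gamma-delta T cell markers 6 were measured. Trgv4 and Maf were past 2-fold higher, while Id3 read 1779 in knockout cells and 3555 in wild-type cells, just short of 2-fold lower and past it under the 3 other scalings. Their sum was 98091 in knockout cells and 50835 in wild-type cells, and without Trgv4 it was 32569 in knockout cells and 29877 in wild-type cells. The Trgv4 probe set used ends in _x_at and may cross-hybridise, and the 3 measured Trgv4 probe sets had log2 ratios between 1.64 and 2.31.

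Of 8 named mature T cell markers 4 were measured. Klf2 and Ctla4 were past 2-fold higher, Ctla4 not so under median scaling, while Il2rb and Icos each had a log2 ratio of -0.47. Their sum was 8318 in knockout cells and 4666 in wild-type cells, and without Ctla4 it was 2429 in knockout cells and 1895 in wild-type cells. Of 11 named NK and innate lymphoid markers 7 were measured, with a median log2 ratio of 0.85. Nkg7 and Xcl1 were past 2-fold higher, Xcl1 in the deposited values but under none of the 3 other scalings, and Gzma and Klrd1 had log2 ratios of -0.50 and -0.79. Their sum was 24464 in knockout cells and 25041 in wild-type cells, and without Gzma it was 10584 in knockout cells and 5400 in wild-type cells. Of 9 dendritic, 4 named erythroid and 10 thymic stromal markers only 1, 2 and 3 were measured, and none of these differed by 2-fold. The dendritic sum was 1893 in knockout cells and 3539 in wild-type cells, and the erythroid sum 2672 in knockout cells and 2471 in wild-type cells. The stromal sum was 7637 in knockout cells and 4961 in wild-type cells. Without Epcam the stromal sum was 2690 in knockout cells and 2357 in wild-type cells, and the dendritic sum without Flt3 was 1825 and 2985. No marker was at 0 on either array.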

How the data were processed

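RNA of sorted DN3 thymocytes was hybridised to 2 arrays, 1 per genotype. Per the labels' protocols, total RNA was prepared with TRIzol and amplified into biotin-labelled cRNA. The authors deposited linear signal intensities per probe set, and GCOS 1.4 is named in the submitters' processing notes; its settings are not given in sources used here. Both deposited columns have a mean of 1000 after trimming 2% at each end.

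Of 45101 probe sets, 64 controls were left out. Of all, 34958 had 1 gene symbol (34754 matched by gene identifier to RefSeq), 932 had several and stayed unnamed, and 9160 others besides controls had no annotation entry. Members were matched by exact annotated symbol. The floor, the definition of measured and the 2-fold size rule are given in the results, and a fold against a value under the floor is written as at least that fold. The members and lists were chosen with earlier results of these data known. Named genes are all members, Zbtb17, sex-linked genes, list genes past 2-fold, and list genes needed to describe a member. No gene was named for a pattern like a member's, since 2 arrays give 1 ratio. The number of arrays limits the precision. The scripts (Python 3.11.15, numpy 2.4.6, pandas 2.3.3, statsmodels 0.14.6 for loess) were tested on simulated data. Alternatives were median, quantile and loess scaling, other floors and filters, a 1.5-fold threshold, leaving out probe sets of shared sequence, and the mean or median of probe sets.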

Additional observations from a re-analysis of the deposited data

How the results depend on the processing

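The count of member probe sets at least 2-fold higher, 2 in the deposited values, was 1 under median scaling and 1 without probe sets of shared sequence. It was 4 with the floor at the lower quartile, where the dim probe sets of Runx3 and Satb1 were added by construction of the lower floor. These 4 are 14.3% of 28, where 19.5% of all 37161 probe sets measured under that floor were higher. At a 1.5-fold threshold 7 were higher and 4 lower of 26, or 26.9% and 15.4%, against 21.9% and 17.6% of all measured probe sets. The members' median of 0.16 on the log2 scale was 0.01 under median scaling, 0.31 under quantile and 0.28 under loess normalization. The median of all measured probe sets, 0.04 as deposited, was -0.12, -0.02 and -0.01 in these settings. The causes of the shifts of the members' median under quantile and loess normalization were not tested. The other 21 values of these counts and this median, and 91 values for single members, stayed within the limits used: a move of at most 1.5 times for counts (2 lower became 3 under median scaling and under loess normalization), the SD within a gene for members and that SD over the square root of the number of probe sets for the median. Many of the values for single members were fixed beforehand, since the floor and filter settings leave the ratio of a bright probe set unchanged. Median scaling shifts all ratios above the floor alike, by less than the SD within a gene. The tally is therefore no measure of robustness. None of the 2-fold members by brightest probe set changed sign in the alternatives run. No replicate could be left out, with 1 array per genotype. Detection calls were not analysed here, so signal over background is judged by the floor alone.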
